A study of Mus musculus with 234 samples.

Results

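The heat shock protein genes described here are the Hsp70 genes *Hspa1a*, *Hspa1b* and *Hspa8*, the Hsp110 genes *Hspa4* and *Hsph1*, the cytosolic Hsp90 genes *Hsp90aa1* and *Hsp90ab1*, the J-domain co-chaperone genes *Dnajb1* and *Dnaja1*, and *Hsf1*, the gene of the main heat shock transcription factor. They were taken by symbol from the count table of single mouse cardiomyocytes (CMs), in which each had exactly 1 row, and they make up 10 of its 55538 features. Counts were found for all 10 genes, but *Hspa1a* and *Hspa1b* were too low to be tested in the 3 comparisons with replicated mice, so that 8 genes passed the filter on low counts there.

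Hsp70 proteins bind exposed stretches of unfolded proteins in a cycle driven by ATP. J-domain proteins bring clients and start the cycle, and Hsp110 and BAG proteins release the nucleotide to end it; BAG3 is such an exchange factor, which in muscle links Hsp70 and small heat shock proteins to autophagy. Hsp90 takes over late folding steps of kinases, receptors and myosin. HSF1 is held inactive in unstressed cells, and during proteotoxic stress it binds heat shock elements (inverted repeats of GAA) to switch on *Hspa1a*, *Hspa1b*, *Hsp90aa1*, *Dnajb1* and *Hsph1*, while *Hspa8* and *Hsp90ab1* are expressed constitutively.

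Hearts were dissociated by Langendorff perfusion, single CMs were picked by hand, and a full-length SMART-seq2 library without molecular identifiers was made from each. The study asked how human BAG3 with the P209L mutation, fused to eGFP, acts on CMs. Of the 234 cells, 33 were control CMs (strain label C57BL/6; 24 cells of Mouse_26 and 9 of Mouse_73), 80 were homo_bright and 68 homo_dim CMs (PGKcre:BAG3P209L_homo, with bright or dim eGFP; 21 and 18 cells of Mouse_25, 59 and 50 of Mouse_116), and 27 and 26 were the cells labelled het_bright and het_dim (PGKcre:BAG3P209L_het, Mouse_72). Control and homozygous mice were 2 weeks old, and the age of the heterozygous mouse was not given. The transgene sat in the Rosa26 locus behind a CAG promoter and a floxed stop cassette and came from 1 embryonic stem cell clone. PGK-Cre, which acts in the germ line and most tissues, removed the stop, and homozygous mice carried 2 floxed alleles of which 1 or 2 had lost it. Controls were siblings without an active transgene, kept on a mixed background in the study's methods, although their label names only C57BL/6. No mouse of this series carried the unmutated human BAG3, so that the mutation and the added BAG3 cannot be told apart.

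Mice are the replicates here. Adding up the cells of a mouse within a class gave 8 sums, with 4096609 (control, Mouse_73) to 40508124 counts (homo_bright, Mouse_116). Single cells held 487 to 1392253 counts, and 15 cells had fewer than 1000 detected genes. Levels are given as normalized CPM, which are CPM (library-size scaled counts) adjusted with TMM factors over the 8 sums. All 9 CM markers had counts in every sum, at 77592 to 97863 CPM together. The human BAG3 feature (hBAG) reached 280 and 209 normalized CPM in homo_bright CMs of Mouse_25 and Mouse_116, 10.3 and 91.1 in their dim CMs, and 0.446 and 0.580 in the control sums. In Mouse_72 it went against the labels, with 110 in the cells labelled het_bright and 243 in those labelled het_dim, and values of these cells are given by label. The sign of any difference between bright and dim cells of this mouse follows the labels. Plate GL-9122b held Mouse_25 and Mouse_26 and the GL9989 plates held Mouse_73, Mouse_72 and Mouse_116, so that each plate set had 1 control and 1 homozygous mouse. Mouse_73 and Mouse_72 were on GL9989-1 and Mouse_116 on GL9989-2 and GL9989-3, so that a value within GL9989 still compares different plates. Markers of other cell types also varied: summed fibroblast markers were at 2537 CPM in homo_bright CMs of Mouse_25 and at 33.4 to 514 CPM in the other sums, and summed immune markers at 91.6 and 75.5 CPM in the homo_dim sums against 0.317 and 2.00 CPM in the homo_bright sums. In the cells labelled het_bright and het_dim, summed immune markers were at 40.5 and 3.25 CPM. Summed endothelial markers were at 172 and 162 CPM in homo_bright and 476 and 353 CPM in homo_dim CMs of Mouse_25 and Mouse_116, and at 253 and 472 CPM in the cells labelled het_bright and het_dim. Summed red blood cell markers were at 984 CPM in the cells labelled het_bright and 331 CPM in homo_dim CMs of Mouse_25, against at most 3.96 CPM elsewhere. Summed immediate-early genes, which rise during dissociation, were at 433 and 474 CPM in controls, 1203 and 1299 CPM in homo_bright and 569 and 1497 CPM in homo_dim CMs, and their part in the results was not tested. In sums of this kind, fewer cells with a transcript and less RNA per cell cannot be told apart.

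Sequence matters for what could be counted here. The upstream 250 bases of *Hspa1a* and *Hspa1b* (RefSeq, GRCm38.p6, minus strand, chr17:34972157-34972406 and chr17:34959239-34959488) and of *Hsph1* (minus strand, chr5:149636337-149636586) are shown because *Hspa1a* and *Hspa1b* were nearly silent and almost the same in sequence, and because *Hsph1* is another stress-inducible gene with a match. Capitals mark a match to the pair of heat shock units GAANNTTC or TTCNNGAA, each of which reads the same on both strands.
Hspa1a: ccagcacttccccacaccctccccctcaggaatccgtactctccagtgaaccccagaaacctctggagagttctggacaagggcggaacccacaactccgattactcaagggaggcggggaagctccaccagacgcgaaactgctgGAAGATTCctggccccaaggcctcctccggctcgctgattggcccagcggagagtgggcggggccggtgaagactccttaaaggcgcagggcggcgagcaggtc
Hspa1b: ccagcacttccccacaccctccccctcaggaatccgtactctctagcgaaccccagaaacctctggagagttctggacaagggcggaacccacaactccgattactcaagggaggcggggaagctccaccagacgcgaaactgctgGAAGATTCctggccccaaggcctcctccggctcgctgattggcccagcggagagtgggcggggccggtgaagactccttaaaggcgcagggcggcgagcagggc
Hsph1: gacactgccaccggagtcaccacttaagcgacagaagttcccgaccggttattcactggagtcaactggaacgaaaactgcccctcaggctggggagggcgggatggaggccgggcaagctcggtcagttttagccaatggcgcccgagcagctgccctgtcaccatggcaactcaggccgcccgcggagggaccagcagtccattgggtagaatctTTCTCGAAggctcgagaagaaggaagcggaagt
Each of these 3 windows, which were chosen for a match, held 1, and 12.8% of 32851 upstream windows of the same length held at least 1. In the full 300-base promoters, which also cover bases past the start, *Hsph1* held 3 matches and 1 run of 3 units. Such a run was found in 0.603% of 32851 promoters and in no other gene of this set with a promoter at hand. At that length *Hspa1a* and *Hspa1b* still held 1 match each. The promoters of *Dnajb1* and *Hspa4* held no match, and 1 of 3 annotated starts of *Dnaja1* had 1. The Hspa1 windows differed at 3 of 250 positions. RefSeq promoters were at hand for 6 of the 10 genes, and a match describes letters only.

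The same likeness runs through the transcripts. Of all 75-base windows of the annotated *Hspa1a* transcript (GENCODE M21), 61.7% also occurred in a transcript of another gene, mostly in *Hspa1b*, which shared 52.7%. For *Hspa1b* the share was 55.8%. *Hsp90aa1* shared 42.8% of its windows with 3 pseudogenes, led by Gm12346 with 36.2% and Gm5844 with 22.1%, and *Hspa8* shared 33.0%, mainly with processed pseudogenes. *Dnaja1* shared 18.4%, *Hsp90ab1* 0.537%, and *Hspa4*, *Hsph1*, *Dnajb1* and *Hsf1* shared none. STAR's gene counts take only reads that map to 1 place and 1 gene, so that reads from shared windows can be lost or move between copies. The levels of *Hspa1a*, *Hspa1b*, *Hsp90aa1*, *Hspa8* and *Dnaja1* are uncertain for this reason. Reads came in pairs of 75 bases each, and a shared window need not mean that both mates are shared. The shares above are therefore not the extent of the loss, which was not measured. Exons of other genes overlapped 19.0% of the *Hspa1a*, 10.8% of the *Dnaja1* and 6.09% of the *Hspa8* exon bases in this annotation. Whether strand was used in counting is not given in the sources used here.

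**Figure D1:**
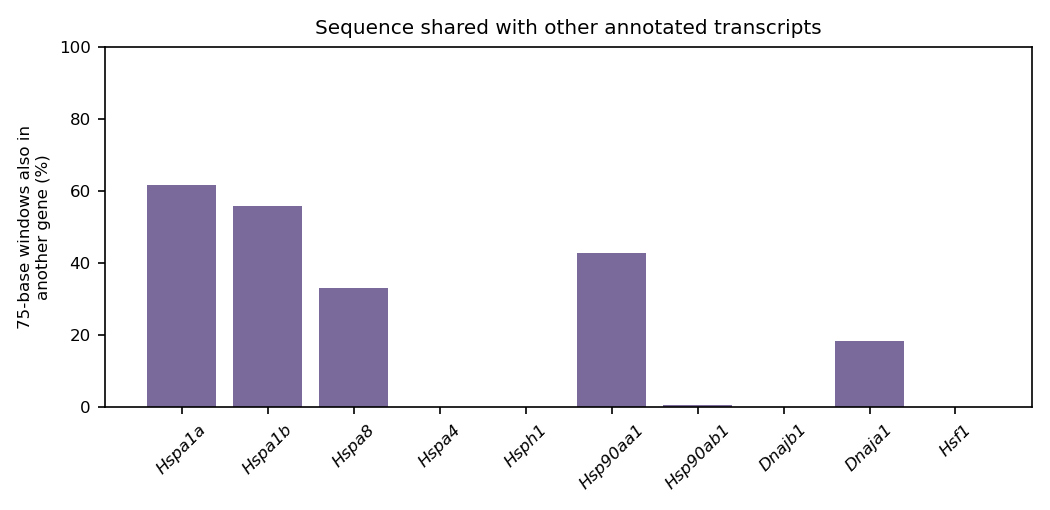
Share of the 75-base windows (percent, vertical axis) of each gene's annotated transcripts that also occur in transcripts of another gene, 1 bar per gene. *Hspa1a* (61.7%) and *Hspa1b* (55.8%) stand highest, followed by *Hsp90aa1* (42.8%) and *Hspa8* (33.0%).

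Per kilobase of exon, the order of the genes was the same at its top in every sum. *Hsp90ab1* had 324 to 442 normalized CPM per kilobase over the 8 sums, *Hspa8* 128 to 198, *Hsp90aa1* 34.3 to 61.5 and *Hspa4* 12.8 to 21.5, and these 4 ranges did not overlap. *Dnajb1* (3.34 to 8.32), *Dnaja1* (2.82 to 5.46), *Hsf1* (1.31 to 7.11) and *Hsph1* (0.976 to 2.47) overlapped with their neighbours. *Hspa1a* stayed at or below 1.25 and *Hspa1b* at or below 0.182 per kilobase. How far reads lost to copies, or gained from them, move the values of *Hspa1a*, *Hspa1b*, *Hspa8*, *Hsp90aa1* and *Dnaja1* on this scale was not measured.

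The stress-inducible Hsp70 genes were close to absent at this depth. All 234 cells together held 119 counts of *Hspa1a* in 12 cells and 31 counts of *Hspa1b* in 6 cells, against 112664 counts of the constitutive *Hspa8* in 225 cells. Of the *Hspa1a* counts, 50 came from 1 het_dim CM and 41 from 1 homo_bright CM of Mouse_25, and the 10 richest cells held 98.3% of them. A count of either gene was found in 1 of 33 control CMs (3.03%, exact 95% interval 0.0767 to 15.8%), 8 of 80 homo_bright CMs (10%, 4.42 to 18.8%), 1 of 68 homo_dim CMs (1.47%, 0.0372 to 7.92%), 1 of 27 CMs labelled het_bright (3.70%, 0.0937 to 19.0%) and 3 of 26 labelled het_dim (11.5%, 2.45 to 30.2%). These intervals, like all counting intervals here, cover counting error only, and cells of 1 mouse are not replicates. The cells with a count had median totals of 650310 to 1276582 counts in the 5 groups, against 537876 to 773643 in the cells without one. For *Hspa1a* alone, 0 of 33 control CMs allows a share of cells with a count of up to 9.09%. This limit uses a floor of 3 and not the exact interval, and it leaves out reads lost to shared sequence.

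The sums showed the same few cells. *Hspa1a* and *Hspa1b* together held 1 and 0 counts in the control sums of Mouse_26 and Mouse_73, 55 and 30 in homo_bright CMs of Mouse_25 and Mouse_116, 0 and 1 in homo_dim CMs, 9 in the cells labelled het_bright and 54 in those labelled het_dim. Per 1000 counts of *Hspa8* this was 0.0654 (95% interval 0.00166 to 0.365) and 0 (0 to 1.95) in controls, 4.57 (3.44 to 5.95) and 0.915 (0.617 to 1.31) in homo_bright, and 0 (0 to 0.334) and 0.0411 (0.00104 to 0.229) in homo_dim CMs. It was 1.197 (0.547 to 2.27) in the cells labelled het_bright and 6.95 (5.22 to 9.08) in those labelled het_dim. The homo_bright values lay above the control and homo_dim values, but the interval of control Mouse_73 reached above the value of homo_bright Mouse_116, so that their order was not resolved. The order of the heterozygous sums rests on single cells, since 1 cell held 50 of the 54 counts in het_dim and 1 cell all 9 in het_bright. The mean ratio per 1000 *Hspa8* counts was 2.74 ± 2.58 (SD, n = 2 mice) in homo_bright, 0.0327 ± 0.0463 in control and 0.0206 ± 0.0291 in homo_dim CMs. Two-sided exact permutation tests over mice gave p = 0.333 for homo_bright against control, the smallest p that 2 against 2 mice allow, p = 1 for homo_dim against control, and p = 0.5 for homo_bright against homo_dim with the classes paired by mouse, again the smallest possible. Without Mouse_25 the difference of homo_bright from control fell from 2.71 to 0.882 per 1000 *Hspa8* counts.

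**Figure D2:**
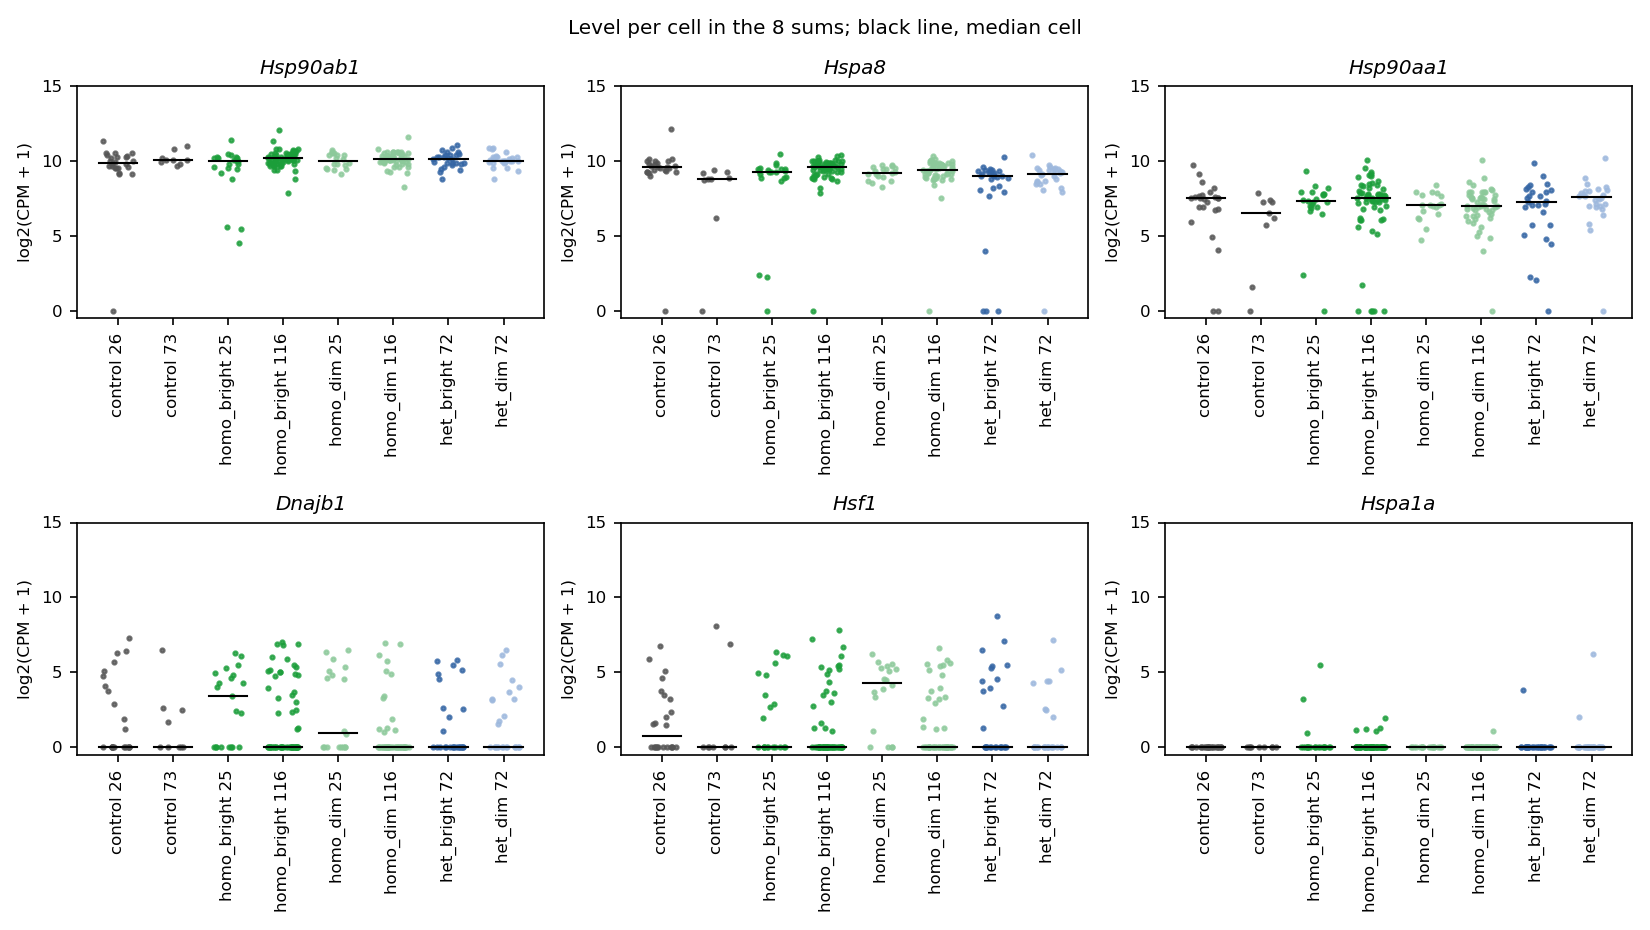
Levels in single cells as log2(CPM + 1), each point a cell and each black line the median cell, for 6 genes in the 8 sums named by group and mouse. *Hsp90ab1* and *Hspa8* form bands in every sum, *Dnajb1* and *Hsf1* were at 0 in most cells, and *Hspa1a* was above 0 in 12 of 234 cells.

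The constitutive Hsp70 gene *Hspa8* was read in 96.2% of all cells. It reached 852 and 549 normalized CPM in the control sums of Mouse_26 and Mouse_73, 606 and 727 in homo_bright CMs of Mouse_25 and Mouse_116, 581 and 646 in their homo_dim CMs, and 571 and 555 in the cells labelled het_bright and het_dim. The controls enclosed all other sums. The log2 difference was -0.09 (SE 0.31, 95% interval -0.84 to 0.67, edgeR quasi-likelihood test with Benjamini-Hochberg adjustment, adjusted p = 0.981) for homo_bright and -0.21 (SE 0.33, -0.998 to 0.58) for homo_dim against control, and 0.11 (SE 0.19, -0.37 to 0.59) for homo_bright against homo_dim. Within plate sets homo_bright minus control was -0.49 on GL-9122b and 0.41 on GL9989, and homo_dim minus control -0.55 and 0.24. Between the control mice alone the level differed more than between any transgenic sums.

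The Hsp110 genes encode exchange factors for Hsp70 that also hold unfolded proteins. *Hspa4* was at 84.8 and 71.0 normalized CPM in controls, 119 and 96.1 in homo_bright, 84.0 and 106 in homo_dim CMs, and 81.0 and 89.5 in the cells labelled het_bright and het_dim. Both homo_bright sums lay above both controls, with a log2 difference of 0.44 (SE 0.36, 95% interval -0.42 to 1.31; 0.48 within plate set GL-9122b and 0.43 within GL9989). For homo_dim against control it was 0.27 (SE 0.37, -0.62 to 1.16). *Hsph1*, the inducible member, was at 16.8 and 16.5 in controls, 7.20 and 15.2 in homo_bright, 7.09 and 16.3 in homo_dim, and 17.9 and 13.8 in heterozygous CMs. The low values were both from Mouse_25, and the log2 difference of homo_bright from control was -0.60 (SE 0.83, -2.61 to 1.42), or -1.17 on GL-9122b and -0.12 on GL9989. *Hsph1* was read in 81 of 234 cells, and single cells supplied 23.3 to 56.5% of the counts of a sum.

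*Hsp90aa1*, the inducible Hsp90 gene, was the only one of the 8 testable genes whose sums did not overlap between homo_bright and homo_dim CMs, where 15.1% of all genes lay above and 16% below without overlap. It was at 185 and 135 normalized CPM in controls, 190 and 211 in homo_bright CMs of Mouse_25 and Mouse_116, 139 and 146 in their homo_dim CMs, 155 in the cells labelled het_bright and 242 in those labelled het_dim. In each of the 3 transgenic mice the sum with more hBAG had the higher level. Of 16613 genes, 11.5% were higher in the sum with more hBAG in all 3 mice and 10.9% were lower. Of the 8 testable members, only *Hsp90aa1* was higher in all 3 mice and 0 were lower. *Hspa1a* and *Hspa1b* were higher too, but they failed the filter in the 3 comparisons with replicated mice. They rest on few cells and are not set against that share. For *Hsp90aa1*, the homo_bright sums lay above both controls, and the homo_dim sums lay between the controls. Bright minus dim was 0.45 in Mouse_25 and 0.53 in Mouse_116 on the log2(normalized CPM + 0.5) scale, and -0.64 in Mouse_72, where the labels and the transgene go opposite ways. Against control the log2 difference was 0.31 (SE 0.32, 95% interval -0.47 to 1.08) in homo_bright CMs, with 0.04 within plate set GL-9122b and 0.64 within GL9989, and -0.19 (SE 0.34, -1.003 to 0.63) in homo_dim CMs, with -0.41 and 0.11. Homo_bright CMs exceeded homo_dim CMs by a log2 difference of 0.49 (SE 0.20, 95% interval -0.01 to 0.98, unadjusted p = 0.0520, adjusted p = 0.999 by edgeR's quasi-likelihood test). That fit had no term for the mouse, although both classes came from the same 2 mice. With the mouse as a block, the unadjusted p was under 0.05 (edgeR), and the gene was still not called. The difference between Mouse_72 and the homozygous mice in bright against dim, tested as an interaction, was -1.14 (SE 0.24, -1.78 to -0.50, unadjusted p = 0.00665, adjusted p = 0.797), and it did not pass the threshold over all genes. It rests on 1 heterozygous mouse, and its sign follows labels that run against the transgene in Mouse_72. For this gene only the spread between the 2 homozygous mice gives an error, and edgeR adds to it from the spread of all genes. Taken by transgene level, the 3 mice moved the same way, and no difference between them was tested on that scale.

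Without the richest cell and by the median cell, the order of bright and dim CMs within each transgenic mouse was the same, whereas that of homo_bright CMs and controls differed by the median cell. In Mouse_72, 24.9% of the *Hsp90aa1* counts of the cells labelled het_dim came from 1 cell. Without the richest cell of each sum, the levels before TMM scaling were 138 and 198 CPM in the cells labelled het_bright and het_dim, 176 and 221 CPM in homo_bright and 137 and 153 CPM in homo_dim CMs of Mouse_25 and Mouse_116, against 157 and 97.6 CPM in controls of Mouse_26 and Mouse_73, and the interaction was -0.87 (SE 0.24, -1.51 to -0.23). Without the 43 cells in which markers of other cell types summed to more than 1000 CPM, homo_bright minus homo_dim was 0.40 (SE 0.23, -0.15 to 0.95) and the interaction -0.92 (SE 0.28, -1.61 to -0.23). The median cell had 182 and 92.5 CPM in controls, 157 and 182 CPM in homo_bright, 132 and 129 CPM in homo_dim, 155 CPM in het_bright and 191 CPM in het_dim CMs, so that by the median cell the control of Mouse_26 lay above both homo_bright sums (181.9 against 156.5 and 181.7 CPM). On the 2 plates that held CMs of Mouse_116, bright and dim cells were at 209 and 145 CPM on one and at 262 and 181 CPM on the other. Within a mouse, with bright and dim cells together, Spearman's rho between *Hsp90aa1* and hBAG over cells with at least 1000 genes was 0.31 in Mouse_25 (38 cells), 0.14 in Mouse_116 (104 cells) and 0.24 in Mouse_72 (49 cells). Within a single brightness class it was -0.03 to 0.18 over the 6 transgenic sums. Both genes were measured in the same libraries, and no test was made.

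**Figure D3:**
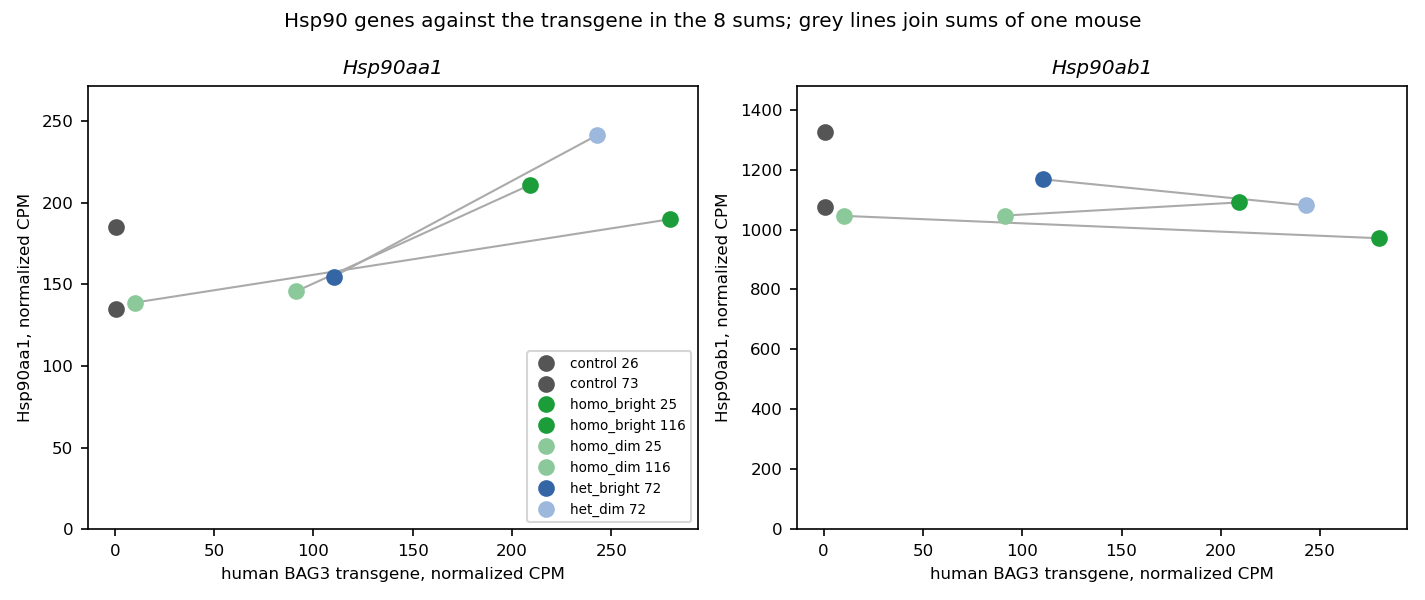
Normalized CPM of *Hsp90aa1* (left) and *Hsp90ab1* (right) against normalized CPM of human BAG3, each point a sum of cells of 1 group and mouse, with grey lines between the bright and dim sums of a mouse. All 3 lines rise in *Hsp90aa1*, from 139 to 190 in Mouse_25, 146 to 211 in Mouse_116 and 155 to 242 in Mouse_72, whereas those of *Hsp90ab1* are close to level.

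*Hsp90ab1*, the constitutive Hsp90 gene, lay between 971 and 1327 normalized CPM in the 8 sums. It was read in 233 of 234 cells, at 1075 and 1327 normalized CPM in controls, 971 and 1090 in homo_bright, 1046 and 1047 in homo_dim, and 1168 and 1080 in the cells labelled het_bright and het_dim. Its log2 differences were -0.25 (SE 0.27, 95% interval -0.91 to 0.41), -0.22 (SE 0.29, -0.91 to 0.48) and -0.03 (SE 0.17, -0.46 to 0.40) for homo_bright and homo_dim against control and for homo_bright against homo_dim. The ratio of *Hsp90aa1* to *Hsp90ab1* counts was 0.172 and 0.102 in controls, 0.196 and 0.193 in homo_bright, 0.133 and 0.139 in homo_dim, and 0.133 and 0.224 in the cells labelled het_bright and het_dim. The 2 homo_bright ratios were close to each other and stood above all control and homo_dim ratios. The log2 ratio was higher in homo_bright than in homo_dim CMs by 0.52, with means of -2.36 ± 0.01 and -2.88 ± 0.05 (SD, n = 2 mice; two-sided exact permutation test with the classes paired by mouse, p = 0.5, the smallest possible). Against controls (-2.92 ± 0.54) it was higher by 0.56 in homo_bright (exact permutation test, p = 0.333, the smallest possible) and by 0.04 in homo_dim CMs (p = 1). Without control Mouse_73 the first fell to 0.18 and the second turned to -0.34, and without control Mouse_26 they were 0.94 and 0.42.

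The J-domain genes were low and uneven. *Dnajb1*, whose product directs Hsp70 to aggregated proteins, was read in 98 of 234 cells, at 26.7 and 18.3 normalized CPM in controls, 19.0 and 16.4 in homo_bright, 20.1 and 10.7 in homo_dim, and 13.2 and 11.2 in heterozygous CMs. In the control sum of Mouse_73, 1 cell gave 92.1% of its counts. The log2 difference of homo_bright from control was -0.36 (SE 0.66, 95% interval -1.97 to 1.24), and it turned to 0.25 without the same 43 cells. *Dnaja1*, a farnesylated partner of Hsp70 for many clients, was read in 173 cells. It was at 26.4 and 26.7 in controls, 32.6 and 39.2 in homo_bright, 47.1 and 33.4 in homo_dim, and 24.3 and 32.4 in heterozygous CMs. All 4 homozygous sums lay above both controls, with log2 differences of 0.41 (SE 0.53, -0.87 to 1.69) and 0.58 (SE 0.53, -0.69 to 1.86) for homo_bright and homo_dim, neither of which passed the test. Within the 2 plate sets they were 0.30 and 0.55 in homo_bright and 0.82 and 0.32 in homo_dim CMs.

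*Hsf1* was read in 96 of 234 cells, at 12.4 and 50.4 normalized CPM in controls, 17.9 and 15.6 in homo_bright, 23.6 and 9.27 in homo_dim, and 20.1 and 11.6 in heterozygous CMs. The high control value came from 2 of the 9 cells of Mouse_73, 1 of which held 69.0% of the counts. The log2 difference of homo_bright from control was -0.94 (SE 0.83, 95% interval -2.96 to 1.07), and without Mouse_73 it was 0.44. On GL-9122b it was 0.51 and on GL9989 -1.66.

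**Figure D4:**
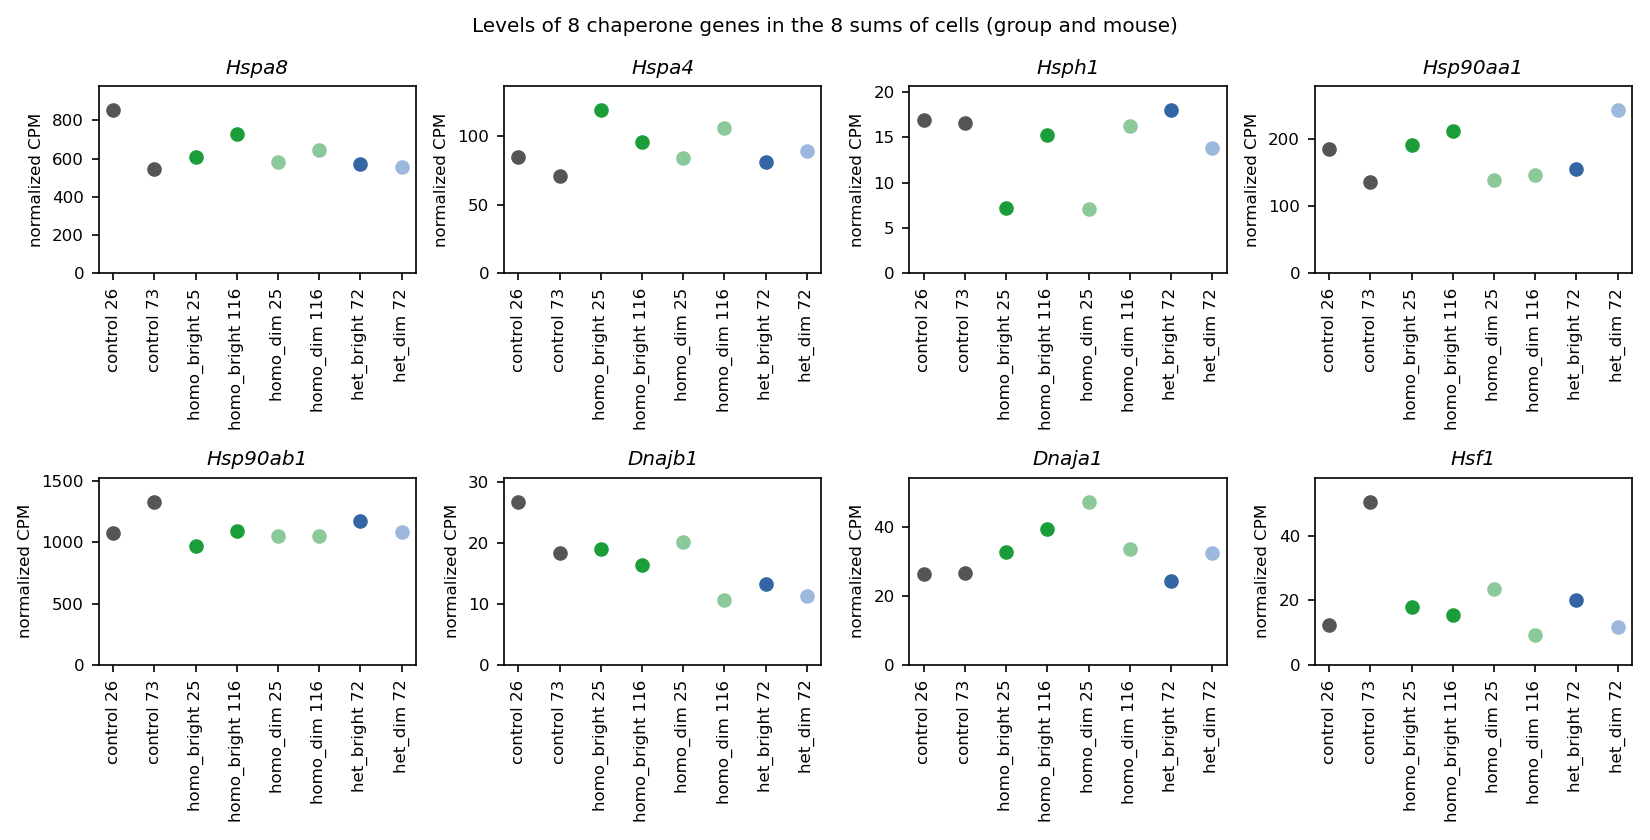
Normalized CPM (vertical axes from 0) of the 8 testable genes, with 1 point per sum of cells named by group and mouse. *Dnaja1* lies above both controls in all 4 homozygous sums, *Hsp90aa1* is higher in homo_bright than in homo_dim CMs of both mice, and the other genes overlap between homo_bright and homo_dim.

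Across all genes, edgeR's quasi-likelihood test called few differences in any direction, and none of the heat shock genes was among them. Homo_bright CMs were compared with controls to see what goes with a high transgene level. Of 12203 genes 2 were called (0.0164%), which were hBAG and BAG-eGFP, and 0 of the 8 testable members. Homo_dim against control gave 0 of 12195 genes (0%) and homo_bright against homo_dim 0 of 13439 (0%), with 0 of 8 members each. The interaction gave 0 of 16194 genes (0%) and 0 of 10 members. At an unadjusted p under 0.05 there were 799, 759, 554 and 973 genes, with 0, 0, 0 and 1 members, the last being *Hsp90aa1*. In homo_bright against homo_dim, 1 member reached this level with the mouse as a block, with DESeq2 and with library size in place of TMM. DESeq2 called 106, 55 and 89 genes in the first 3 comparisons and 0 members in each. With 2 mice per group, the intervals above show which sizes of change remain possible.

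The sums of some members did not overlap between groups, and each count is given with the share of all genes that did the same. In homo_bright against control, both mice lay above both controls for 3 of 8 members (*Hspa4*, *Hsp90aa1* and *Dnaja1*; 24.3% of all genes) and below for 1 (*Hsph1*; 14.8%). In homo_dim against control the numbers were 1 above (*Dnaja1*; 23.8%) and 2 below (*Hsp90ab1* and *Hsph1*; 14.2%). In homo_bright against homo_dim they were 1 above (*Hsp90aa1*; 15.1%) and 0 below (16%). Both comparisons with controls used the same 2 control mice. The median log2 difference of the members was -0.17 in homo_bright and -0.21 in homo_dim CMs against control, where that of all genes was 0.11 and 0.10. With library size in place of TMM the median of all genes moved to 0.41 and 0.38, and the members went from 3 higher and 5 lower to 5 higher and 3 lower in homo_bright, and from 2 higher and 6 lower to 5 higher and 3 lower in homo_dim CMs.

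**Figure D5:**
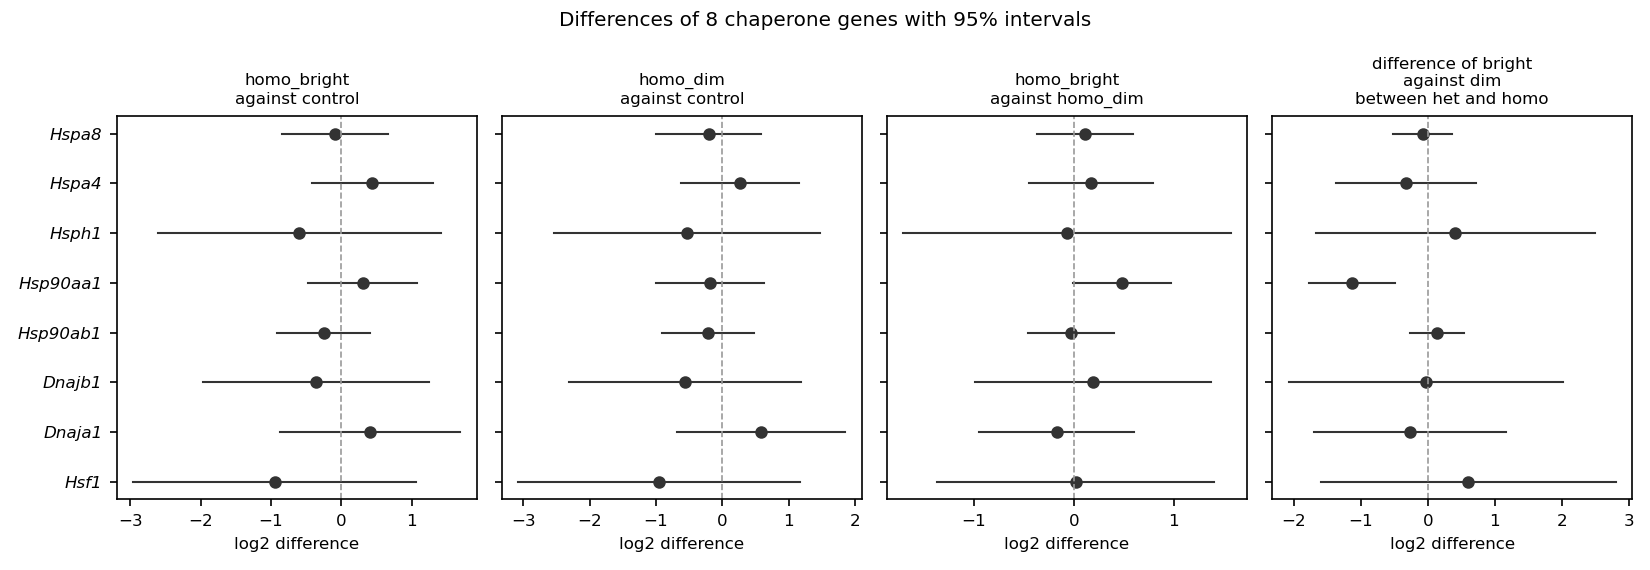
Log2 differences (points) with 95% intervals (lines) of the 8 testable genes in the 3 comparisons and in the interaction of bright against dim with genotype, 2 homozygous mice and 1 heterozygous mouse. The 3 comparisons were fitted without a term for the mouse. The lines cross 0 (dashed) for all genes in the 3 comparisons, and in the interaction for all but *Hsp90aa1* (-1.78 to -0.50).

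The wider chaperone network was followed in 4 lists. Of 18 other Hsp70 genes and exchange factors, 21 Hsp90 genes and co-chaperones, 17 other J-domain genes and 13 other targets and factors of the heat shock response, 0 passed the test in any comparison. In homo_bright against control, 8 of 18 tested genes of the first list were higher and 10 lower (median log2 difference -0.18), 11 of 21 Hsp90 partners higher and 10 lower (0.02), 10 of 17 J-domain genes higher and 7 lower (0.04), and 3 of 12 heat shock targets higher and 9 lower (-0.32). In homo_dim against control the 4 lists had, in the same order, 7 higher and 10 lower (-0.29), 10 and 11 (-0.01), 10 and 7 (0.15), and 3 and 9 (-0.51). In homo_bright against homo_dim the medians of the 4 lists lay between -0.13 and 0.07.

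Genes with the lowest p of their list in a comparison went both ways, and none passed the adjustment. The metallothionein *Mt1*, which binds zinc and is also a target of HSF1, was at 1243 and 972 normalized CPM in controls, 314 and 134 in homo_bright, 315 and 118 in homo_dim, and 273 and 202 in heterozygous CMs. Every transgenic sum lay below both controls, at log2 differences of -2.33 (SE 0.46, unadjusted p = 0.00208, adjusted p = 0.663, edgeR) in homo_bright and -2.37 (SE 0.51, p = 0.00254, adjusted p = 0.735, edgeR) in homo_dim CMs. *Hspbp1*, an Hsp70 exchange factor, had the lowest p of its list in homo_bright against control (-1.45, SE 0.57). It was at 50.6 and 134 normalized CPM in controls, 34.6 and 34.3 in homo_bright and 48.4 and 42.6 in homo_dim CMs. *Hspa1l*, an Hsp70 gene that neighbours the Hspa1 pair, followed, at 0.112 and 0 in controls and 0.806 and 2.13 in homo_bright CMs, too low for a fold, and then *Bag1*, another exchange factor (-0.86, SE 0.38), at 191 and 209 in controls and at 49.1 to 141 elsewhere. Of the J-domain genes, *Dnajc3*, an inhibitor of eIF2 kinases in the endoplasmic reticulum, was at 13.1 and 18.8 in controls and at 55.4 and 40.7 in homo_bright CMs (1.57, SE 0.57). *Dnaja2*, a relative of *Dnaja1*, was at 239 and 253 in controls and at 145 and 152 in homo_bright CMs (-0.75, SE 0.29), and *Dnajc2*, a ribosome-bound co-chaperone, at 25.4 and 101 and at 20.4 and 12.3 (-1.99, SE 0.79). Among Hsp90 partners, *Cdc37l1* differed by -0.86 (SE 0.36) in homo_bright CMs from controls, and *Ppid*, an immunophilin, was at 29.0 and 28.6 in homo_bright and at 61.9 and 38.4 in homo_dim CMs of Mouse_25 and Mouse_116 (-0.81, SE 0.33). In the interaction, the genes of the lists at an unadjusted p under 0.05 included *Unc45a* (6.51, SE 1.95), *Dnajb9* (2.17, SE 0.60), *Ppid* (1.52, SE 0.52) and, with the sign of *Hsp90aa1*, *Cdc37l1* (-1.003, SE 0.34), with an adjusted p of 0.797 by edgeR for each. *Unc45a* was at 7.90 and 0.286 normalized CPM in the cells labelled het_bright and het_dim. It was at 0.910 in homo_bright CMs of Mouse_116, and these levels are too low for a firm fold.

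Over single cells, correlations between members were low. Correlations were taken within each of the 4 mice that had at least 20 cells with at least 1000 genes (211 cells in all) and averaged over mice; all cells share total depth and amplification, and the values describe these libraries. The 28 pairs of the 8 testable genes had mean rho of -0.13 to 0.30, with a median of 0.06. Over all genes with a count in at least 50% of the cells, the median rho was 0.06 with *Hspa8*, 0.03 with *Hsp90aa1* and 0.04 with *Hsp90ab1*, and *Hsph1*, *Hsf1* and *Dnajb1* had counts in 34.6 to 41.9% of cells, where a low rho says little. The highest was between the constitutive genes *Hspa8* and *Hsp90ab1* (0.30, 0.13 to 0.49 by mouse), then *Hsp90ab1* and *Dnaja1* (0.27, 0.13 to 0.41) and *Hspa8* and *Hsp90aa1* (0.23, 0.15 to 0.29).

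The genes whose cell-to-cell pattern was most like a member were taken from 4981 genes with a count in at least 50% of these cells. For *Hsp90aa1* they were its pseudogene Gm5844 (mean rho 0.44), *Ankrd1* (0.43), *Btg1* (0.41), its pseudogene Gm12346 (0.35) and *Enah* (0.34), against a median of 0.03 over all. The pseudogenes had 330 and 417 counts against 30612 of *Hsp90aa1*, and adding them and Gm5511 left the sums in the same order, with 188 and 137 normalized CPM in controls, 194 and 217 in homo_bright, 141 and 150 in homo_dim, and 160 and 247 in the cells labelled het_bright and het_dim. For *Hspa8* the list was *Ubb* (0.33), *Wdr43* (0.32), *Rdh13* (0.32), *Dbnl* (0.31) and *Csnk1d* (0.31). For *Hsp90ab1* it held the ribosomal protein genes *Rpl36* (0.36), *Rps19* (0.35), *Rpl35* (0.32) and *Rpl37* (0.32) and the Golgi gene *Golga4* (0.33). *Hspa1a* had no counts in Mouse_26, and no such list could be made. The small heat shock gene *Cryab* had a mean rho of 0.30 with *Hsp90aa1* and 0.27 with *Hsp90ab1*.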

How the data were processed

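Per the study's methods, the authors mapped reads of each CM with STAR (also named, with bcl2fastq, in the submitters' processing notes) to mouse sequence extended by transcripts of human BAG3 and of eGFP. They deposited raw counts from STAR's GeneCounts option, without normalization. Build, annotation and strand column are not given in the sources used here; symbols were matched to GENCODE M21, which holds 55113 of 55538, and to RefSeq GRCm38.p6. The genes, lists and tests were chosen with earlier results of these data known.

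Counts were summed per mouse and brightness class and tested with edgeR 4.0.16 (R 4.3.3): filterByExpr, TMM, estimateDisp, glmQLFit, glmQLFTest, 2 mice per group, adjusted p under 0.05. Replicates are mice. The interaction was fitted with a term per mouse, and the 3 comparisons without one. The fits were also run on simulated data with known changes, and the outcome is not reported here. Ratios to *Hspa8* were compared on the linear scale because some counts were 0. Clopper-Pearson and Poisson intervals at 95% and the floor of 3 counts for a count of 0 cover counting error only. Named genes were the 10 members, up to 3 genes per list with the lowest p in each comparison, and the 5 most like each of 4 members. Of these 4, *Hspa1a* gave no list. The features hBAG and BAG-eGFP and the gene *Cryab* were added. Some genes that this rule names are not reported here. Bright and dim CMs of Mouse_25 and Mouse_116 share animals and are paired; the difference between the mice correlated over 13439 genes with Pearson r = 0.0754 and Spearman rho = 0.104 between classes. Alternatives were DESeq2 1.42.0, library size, no filter, cells with at least 1000 genes, plate set or mouse as a block, equal weight per cell for ratios, and each mouse left out. A limit of 1000 CPM on other cell types' markers, the removal of top cells and the order by hBAG within mice were added after seeing the data.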

Additional observations from a re-analysis of the deposited data

How the results depend on the processing

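No setting called any of the 8 testable members: over 240 log2 differences of single members under the alternatives to the 3 comparisons the lowest adjusted p was 0.109, 219 kept their direction and 21 did not. Genes called in homo_bright against control went from 2 to 106 with DESeq2, 163 without a filter and 10 with the plate set as a block, in homo_dim against control from 0 to 55, 58 and 12, and in homo_bright against homo_dim from 0 to 89 with DESeq2 and 217 without a filter; the cause was not tested. With the mouse as a replicate block, bright against dim CMs, which are paired by animal, again gave 0 genes and 0 members, and the block changed no call; *Hsp90aa1* was then at 0.49 (unadjusted p = 0.0229, adjusted p = 1, edgeR). Leaving out each mouse gave 0 to 41, 3 to 827 and 0 to 74 called genes in the 3 comparisons and 0 members; a lone mouse is then assumed to vary like the other group, and against the 2, 0 and 0 of all mice, the first comparison gave 0 without control Mouse_26, 15 without Mouse_25 and 41 without Mouse_116, the second 827 without control Mouse_26, 3 without control Mouse_73, 10 without Mouse_25 and 8 without Mouse_116, and the last 74 without the homo_bright CMs of Mouse_116.

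With library size, *Hspa8* turned to 0.22 and *Hsp90ab1* to 0.090 in homo_bright against control, *Hspa8* to 0.075, *Hsp90aa1* to 0.099 and *Hsp90ab1* to 0.085 in homo_dim against control, and *Hsp90ab1* to 0.0040 in homo_bright against homo_dim. Without cells rich in other cell types' markers *Dnajb1* turned to 0.25 in homo_bright against control. With each mouse left out, *Hspa8* ranged from -0.35 to 0.24 and *Hsf1* from -1.63 to 0.44 in homo_bright against control; *Hspa8* from -0.48 to 0.14, *Hsp90aa1* from -0.38 to 0.062 and *Hsf1* from -1.74 to 0.39 in homo_dim against control; and *Hspa8* from -0.015 to 0.23, *Hsph1* from -0.70 to 0.66, *Hsp90ab1* from -0.11 to 0.045, *Dnajb1* from -0.18 to 0.72, *Dnaja1* from -0.39 to 0.10 and *Hsf1* from -0.49 to 0.85 in homo_bright against homo_dim. The difference of Hspa1a plus Hspa1b per 1000 *Hspa8* counts ranged from 0.882 to 4.54 and from 0.894 to 4.55 for homo_bright against control and homo_dim, and from -0.0449 to 0.0206 for homo_dim against control. That of the log2 ratio of *Hsp90aa1* to *Hsp90ab1* ranged from 0.18 to 0.94, from -0.34 to 0.42 and, for homo_bright against homo_dim, from 0.48 to 0.55. The *Hsp90aa1* interaction kept its direction in all 5 alternatives. The Hspa1 genes rest on 150 counts in all, with reads from shared sequence lost to an unknown extent, and the other genes on 2 mice per group.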
